A study of Mus musculus with 2 samples.

Results

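The 34 genes described here encode the enzymes and transporters of glycolysis, the enzymes that steer pyruvate, and the sensors and targets of the response to low oxygen. They were chosen by name and matched to 60 probes in both scanner files, out of 27597 genes and 41170 probes. A probe was matched by its accession, or else by its gene symbol or a synonym (Pkm2 is now called Pkm). The study compared LSK cells from C57BL/6 mice, wild-type and PAD4-deficient (PAD4-/-), with 1 array for each genotype. LSK cells are the bone marrow cells that carry Sca-1 and c-Kit and lack lineage markers, and they hold the blood stem cells and multipotent progenitors. PAD4, the product of Padi4, converts arginine in histones and other proteins to citrulline. The labels do not say whether RNA came from 1 mouse or a pool, how old the mice were, their sex, or which part of Padi4 was deleted. No agent or treatment is named for either group.

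Glycolysis splits glucose into pyruvate. Transporters of the SLC2A family bring glucose in, hexokinase traps it, phosphofructokinase commits it, and pyruvate kinase ends the pathway. Most steps have several isozymes, each from its own gene. Lactate dehydrogenase turns pyruvate into lactate, while pyruvate dehydrogenase feeds it to mitochondria unless PDK kinases switch that enzyme off. In low oxygen the factors encoded by Hif1a and Epas1 escape the prolyl hydroxylases encoded by the Egln genes and raise many of these transcripts. Blood stem cells in the marrow are known to rely on glycolysis more than their progeny.

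With 1 array a genotype no test was possible, and no difference has a replicate check. A value is the processed signal of a probe, in the scanner's linear units. A difference is the log2 signal on the PAD4-deficient array minus that on the wild-type array, after each was scaled to its array's 75th percentile. The error beside it is the scanner's estimate for the spots, carried over both arrays, and does not cover mice. Measured means that the scanner called a probe well above background in both samples, and the brightest measured probe stood for its gene. Signals of different probes depend on the probe, so levels were compared between arrays and never between genes or isozymes. Fewer cells of a type and less RNA per cell cannot be told apart in such bulk samples.

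Padi4 itself gave 12879 in wild-type and 2670 in PAD4-deficient cells, a difference of -2.22 (error 0.20). The 75th percentile of the signal was 814 (wild-type) and 786 (PAD4-deficient). Of all probes, 63.9% and 64.1% were well above background, and no probe was saturated. Of the markers of LSK and stem cells, 12 of 12 were measured, with a median difference of -0.018. Kit had signals of 9342 and 9458, and Ly6a, which encodes Sca-1, had 2637 and 2312. Flt3, a receptor of multipotent progenitors, had 2439 and 1481 (-0.67), the 1 marker of this list that was 1.5-fold lower, while Procr had -0.38 and Slamf1 had 0.47. Markers of other blood cells were also present and mostly higher on the PAD4-deficient array. The median difference was 0.92 over 10 of 11 erythroid markers, 0.56 over 10 of 10 neutrophil markers, 0.66 over 11 of 11 monocyte and dendritic cell markers, 0.55 over 9 of 10 B cell markers and 0.69 over 6 of 7 mast cell markers. The median was 0.33 over 5 of 8 T and NK cell markers and -0.13 over 5 of 8 stromal and endothelial markers. In that last list Cxcl12 had -1.51, Bgn -0.63 and Col1a2 0.50, with Lepr, Col1a1 and Cdh5 not well above background on either array. The arrays also differed in sex-linked transcripts: Xist was higher in the PAD4-deficient sample, by at least 951-fold, and Ddx3y was lower (-1.36). The Y-linked Ddx3y was still measured on both arrays, with 3455 and 1297, as was Eif2s3y, with 2611 and 1076. The PAD4-deficient array thus held Xist and Y-linked transcripts together. Whether its RNA came from mice of both sexes was not tested. The part of these cells and of sex in the differences below was not tested.

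Factors of the low-oxygen response bind a short core sequence, ACGTG or GCGTG, in the DNA near their targets. These letters were searched on both strands in the RefSeq promoter windows of GRCm38.p6, each of 300 bases, from 250 before to 50 after a transcript start. The palindrome CACGTG, which other factors also bind, holds ACGTG on both strands and counts once on each. The table held promoters for 31 of the 34 genes, and for 28 of these (90.3%) at least 1 window held a core, against 46.7% of all 27025 genes in the table. Counted by window, it was 36 of 46 (78.3%) against 43.8% of 32851. The windows of the described genes were richer in G and C, at 61.0% against 53.8%. Slc2a3, Epas1 and Ndrg1 were not in the table. A match is a description of letters and not a binding site.

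The bases before the start are printed for the 3 genes with the lowest and the 3 with the highest difference, to set the ends of the range side by side. Where a gene had several starts, the one with the most matches in its 300-base window was taken, and the first by position on a tie, as for the 3 starts of Eno1. Each runs 5′ to 3′ over 250 bases, and the capitals mark ACGTG or GCGTG on either strand. The coordinates are those of GRCm38.p6.
Aldoc (chr11:78322823-78323072, plus strand): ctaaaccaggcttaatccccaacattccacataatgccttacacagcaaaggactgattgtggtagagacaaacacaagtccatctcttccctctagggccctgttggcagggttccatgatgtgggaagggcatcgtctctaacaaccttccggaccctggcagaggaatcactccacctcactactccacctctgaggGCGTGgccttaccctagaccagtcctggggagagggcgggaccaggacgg
Eno2 (chr6:124769674-124769923, minus strand): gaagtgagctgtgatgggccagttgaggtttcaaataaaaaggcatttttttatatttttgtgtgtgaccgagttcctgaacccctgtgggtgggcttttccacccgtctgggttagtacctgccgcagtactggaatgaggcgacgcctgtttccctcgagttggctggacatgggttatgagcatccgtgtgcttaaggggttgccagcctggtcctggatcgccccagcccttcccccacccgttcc
Eno1 (chr4:150236458-150236707, plus strand): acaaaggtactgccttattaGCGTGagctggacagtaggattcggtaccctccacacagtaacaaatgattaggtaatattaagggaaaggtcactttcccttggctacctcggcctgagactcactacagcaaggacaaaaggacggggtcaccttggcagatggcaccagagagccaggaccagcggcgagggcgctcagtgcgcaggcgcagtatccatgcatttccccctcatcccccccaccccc
Pgam1 (chr19:41911621-41911870, plus strand): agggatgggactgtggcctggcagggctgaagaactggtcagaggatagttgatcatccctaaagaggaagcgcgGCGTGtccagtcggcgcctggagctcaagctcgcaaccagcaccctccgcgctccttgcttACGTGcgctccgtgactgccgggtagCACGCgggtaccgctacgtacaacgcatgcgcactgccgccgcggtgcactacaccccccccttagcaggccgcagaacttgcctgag
Hif1a (chr12:73907617-73907866, plus strand): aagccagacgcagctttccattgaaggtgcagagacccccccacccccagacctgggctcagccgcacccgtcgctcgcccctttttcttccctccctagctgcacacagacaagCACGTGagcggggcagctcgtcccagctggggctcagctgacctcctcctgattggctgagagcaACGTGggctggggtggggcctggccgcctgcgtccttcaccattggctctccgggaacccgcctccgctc
Ldha (chr7:46845554-46845803, plus strand): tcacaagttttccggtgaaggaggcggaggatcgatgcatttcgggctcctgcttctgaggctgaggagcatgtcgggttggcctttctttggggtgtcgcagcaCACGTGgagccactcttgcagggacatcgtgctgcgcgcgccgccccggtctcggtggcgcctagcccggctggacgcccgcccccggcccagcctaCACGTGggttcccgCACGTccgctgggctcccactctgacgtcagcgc
The Ldha stretch held 5 matches and the palindrome 2 times, and those of Pgam1 and Hif1a held 3 matches each. The stretches of Aldoc and Eno1 held 1 match each and that of Eno2 held 0. These counts depend on the stretch: in the full windows of 300 bases Aldoc and Pgam1 held 3 matches each, as did Hif1a, while Eno1 held 2, Eno2 held 0 and Ldha held 7. With 6 genes chosen by their difference this is a description and no relation was tested. The letters differ in composition too: G and C made up 54.4% to 55.6% of the first 3 and 64.0% to 67.2% of the other 3. For Eno1 this share and the count of 1 match hold for the printed start only, so they depend on the tie rule. In its window from 150236947, which tied at 2 matches, both matches lie in the first 250 bases. The share of G and C at the starts of Eno1 that were not printed was not computed.

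Most genes of this pathway had nearly the same signal in both genotypes, as did most of all measured genes. Of the 34 genes, 33 were measured. Their differences ran from -0.62 (Aldoc) to 0.23 (Pgam1), with a median of -0.062 against 0.024 over all 17021 measured genes. Below 0 lay 20 of the 33, against 45% of all genes, and above 0 lay 13, against 55%. In 22 of the 33 the difference was within its own scanner error, against 11890 of all 17021 genes. The median size of the difference, without its sign, was 0.16 against 0.14 over all genes. The scanner error was close to 0.20 for nearly all of the 33, so the count is close to one at a fixed cut. Beyond the error, 8 were lower (24.2%, against 14.1% of all genes) and 3 were higher (9.09%, against 16.1%).

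**Figure D1:**
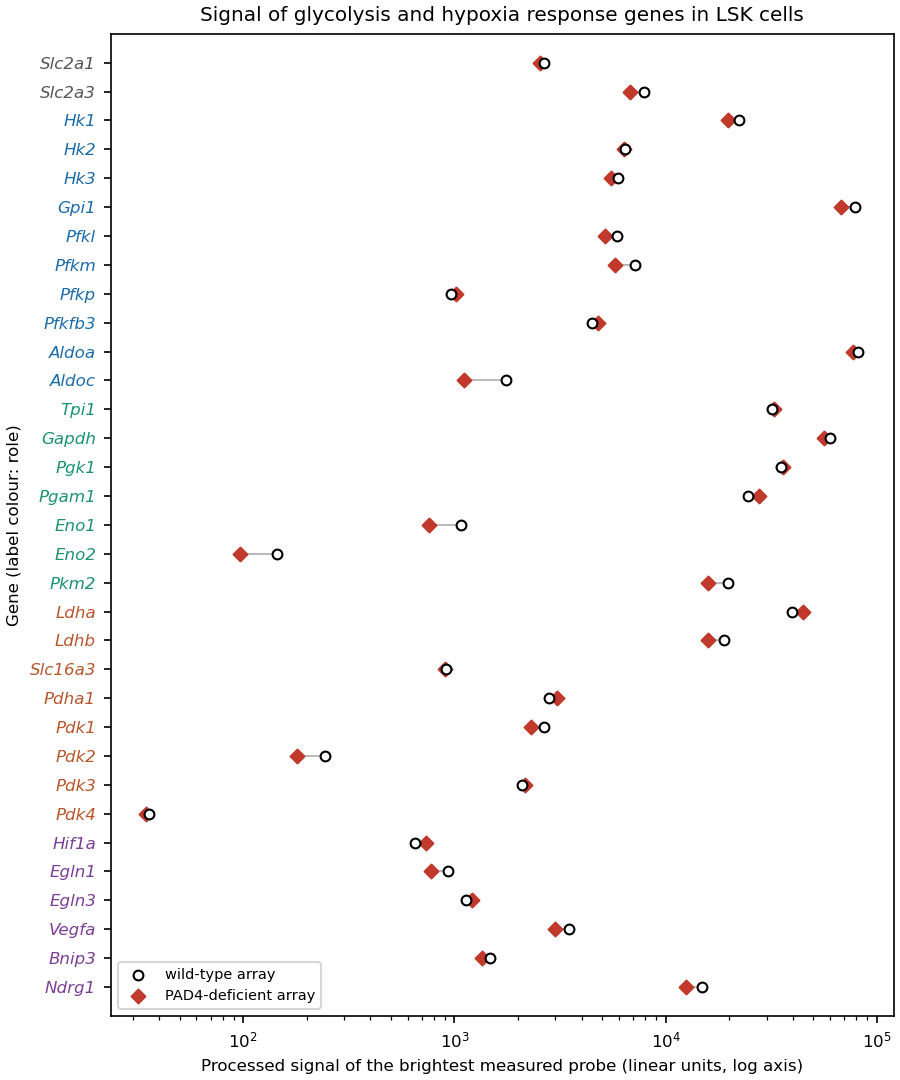
Processed signal (x axis, linear units on a log axis) of the brightest measured probe of 33 genes on the wild-type array (open circles) and the PAD4-deficient array (red diamonds), with gene labels coloured by role. Aldoc, Eno2, Eno1 and Pdk2 have the widest gaps, each with the PAD4-deficient array lower; distances between genes carry no meaning because probes differ.

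Larger differences were few. At least 1.5-fold lower was 1 gene, Aldoc, against 1.87% of all genes, and 0 genes were at least 1.5-fold higher, against 2.88%. At 2-fold no gene passed in either direction, where 1.01% of all genes were higher and 0.476% lower. At 1.25-fold, a threshold chosen after seeing the data, 4 genes were lower, Aldoc, Eno2, Eno1 and Pdk2, or 12.1% against 8.05% of all genes. At 1.25-fold higher there were 0, against 8.86%. Over all measured genes, 490 were at least 1.5-fold higher and 318 lower, or 426 and 417 when arrays were scaled to the median.

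**Figure D2:**
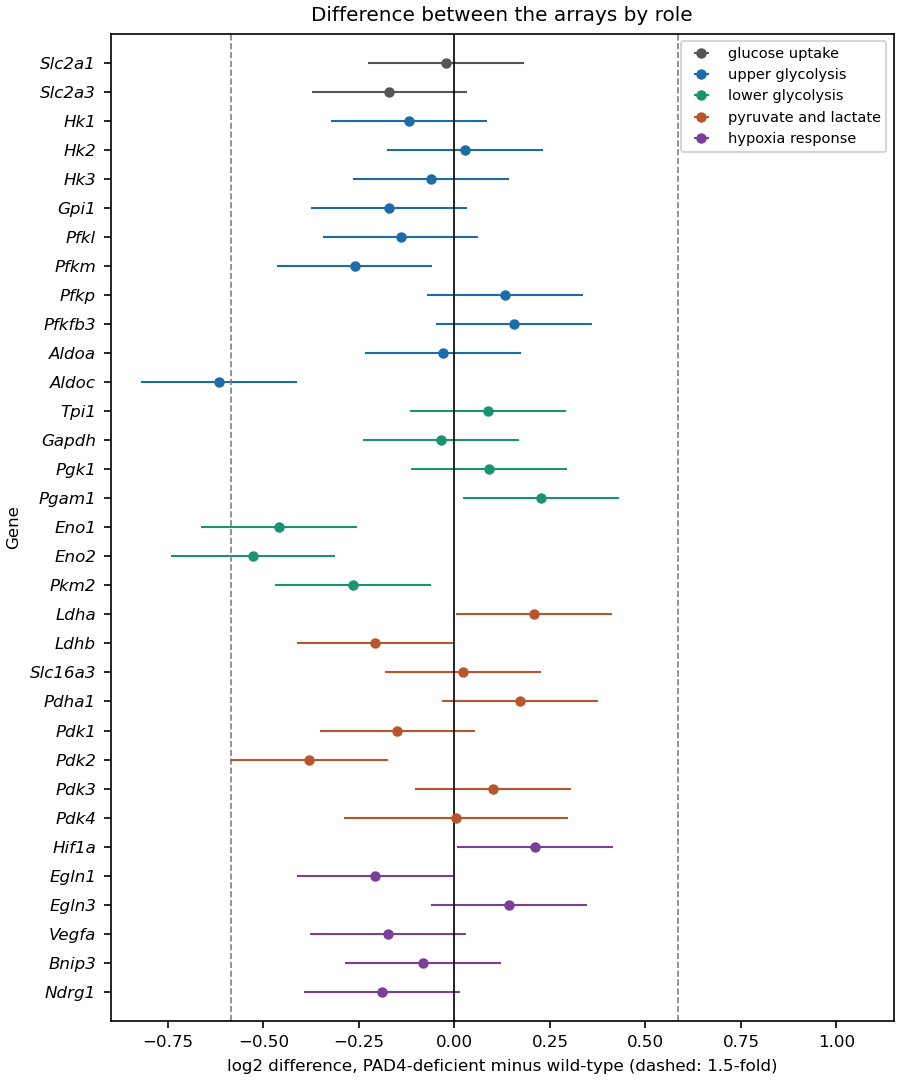
Difference between the arrays (x axis, log2 scale, PAD4-deficient minus wild-type) of the same 33 genes, coloured by role, with the scanner error as bars and 1.5-fold as dashed lines. Values run from -0.62 to 0.23, and 22 bars reach across 0.

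Glucose uptake came first in the order of the pathway. Slc2a1, the transporter of most blood cells, had signals of 2655 and 2526 on the wild-type and PAD4-deficient arrays, a difference of -0.022 (error 0.20). Slc2a3, a transporter of high affinity, had 7887 and 6771, a difference of -0.17. Both differences were within the error. A second Slc2a3 probe, with dim signals of 83.7 and 91.5, had 0.18, the opposite sign.

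The hexokinases, which phosphorylate glucose, held the widest gap between probes of one gene. Hk2, the inducible isozyme, had 6449 and 6346 (0.027), and Hk3, an isozyme of white blood cells, had 5948 and 5506 (-0.062). Hk1, the widely expressed isozyme, had 22166 and 19722 at its brightest probe (mm8 chromosome 10, 61664525 to 61664584), a difference of -0.12. By these probes the 3 isozymes did not differ from each other beyond the error, the largest gap being 0.15 (error 0.29).

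The other Hk1 probes gave another picture. The probe at 61665344 to 61665403 had signals of 1649 and 944, a difference of -0.76 (error 0.20). Its neighbour at 61665219 to 61665249 had 403 and 230 (-0.76), and the one at 61666986 to 61667045 had 1371 and 809 (-0.71). All 3 were thus more than 1.5-fold lower on the PAD4-deficient array. They lie within a few kilobases of the brightest probe. Further along the locus, at 61710810 to 61710869, a dim probe had 84.96 and 99.9, a difference of 0.28 (error 0.22). The last probe, at 61753728 to 61753787, was not well above background on either array. The mean over the 5 measured probes was -0.41. The RefSeq table holds 2 starts for Hk1, 1 with 5 core matches in its window and 1 with 0. Which transcripts each probe binds was not tested, and the exon and UTR annotation of mm8 was not used here.

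Gpi1, which turns glucose 6-phosphate into fructose 6-phosphate, was printed in many spots and so has a measured technical spread. Over 8 unflagged spots its signal ran from 77164 to 81374 on the wild-type array, with a median of 78014. On the PAD4-deficient array it ran from 66374 to 69268, with a median of 67142. The spots did not overlap between the arrays, also after scaling (68710 to 71706 on the wild-type scale), and the difference was -0.17 with an error of 0.013 from the spread of the spots. That error covers the printing and reading of 1 labelled RNA on each array and nothing else. The dim second probe of Gpi1, with 30.0 and 34.1, had 0.23 (error 0.32).

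Phosphofructokinase, the committed step, has a liver, a muscle and a platelet form. Pfkm, the muscle form, was lower on the PAD4-deficient array, at 7135 and 5749, which differ by -0.26 (error 0.20). Pfkl, the liver form, had 5876 and 5147 (-0.14). Pfkp, the platelet form, had 960 and 1017 (0.13), while its other 2 probes gave -0.19 and 0.30. The gap of 0.39 between Pfkp and Pfkm was larger than its error of 0.29, but the probes of Pfkp did not share a sign. Pfkfb3 makes the activator fructose 2,6-bisphosphate. It had 4460 and 4798 (0.16), with -0.30 and 0.27 at 2 dim probes.

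The aldolases cleave the sugar, and here the isozymes parted. Aldoa, the main form of muscle and blood cells, had 81468 and 77090 at its brighter probe, a difference of -0.030, and 72304 and 70115 (0.0055) at the other. Aldoc, best known from brain, had 1759 and 1107 (mm8 chromosome 11, 78142657 to 78142716), a difference of -0.62 (error 0.20). The gap between them was 0.59 (error 0.29). The second Aldoc probe, with 175 and 145, had the same sign and a smaller difference of -0.22 (error 0.21), and with the mean over probes Aldoc had -0.42 and was no longer 1.5-fold lower.

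In the middle of lower glycolysis, Tpi1, Gapdh and Pgk1 differed by less than their scanner error and Pgam1 by slightly more. Tpi1, triose phosphate isomerase, had 31730.5 and 32582 (0.088). Gapdh, the dehydrogenase that makes NADH, had 59831 and 56380 (-0.036). Pgk1, which yields the first ATP, had 10 spots from 31816.5 to 36549 on the wild-type array (median 35370) and 10 from 34820.5 to 37810 on the PAD4-deficient array (median 35441). These spots overlapped, before and after scaling. The difference after scaling was 0.091 with a spot error of 0.023, and 0.070 at the second probe. Pgam1, phosphoglycerate mutase, had 24481 and 27664, a difference of 0.23 just beyond its error of 0.20. Many of these enzymes have processed pseudogenes in the mouse genome, and whether their transcripts add to these probes was not tested.

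Of the enolases, the next step, Eno1 and Eno2 were lower on the PAD4-deficient array. Eno3, a further isozyme outside the described set, had 2211 and 2135, a difference of -7.8e-05 (error 0.20). Eno1, the form of most tissues, had 1074 and 754 at its single probe (mm8 chromosome 4, 149087825 to 149088050), a difference of -0.46 (error 0.20). Eno2, the neuronal form, was dim, with 144 and 96.8 (mm8 chromosome 6, 124726146 to 124726205), a difference of -0.53 (error 0.21), and 105 and 79.5 (-0.34) at the other probe. Eno1 and Eno2 differed from each other by 0.067, within the error of 0.30. Normexp background correction with an offset of 50 brought Eno2 to -0.34, and Eno1 stayed at -0.47.

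Pkm2, pyruvate kinase, which makes pyruvate and ATP, had 3 probes that disagreed. The brightest had 19709 and 15843, a difference of -0.27 (error 0.20), and the next had 15600 and 10390, a difference of -0.54. These probes lie side by side on mm8 chromosome 9, at 59477106 to 59477165 and 59476958 to 59477017. The third, upstream at 59470599 to 59470658, had 473 and 469 (0.038). It was the only one of the 3 near 0, and median scaling turned it to -0.018.

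**Figure D3:**
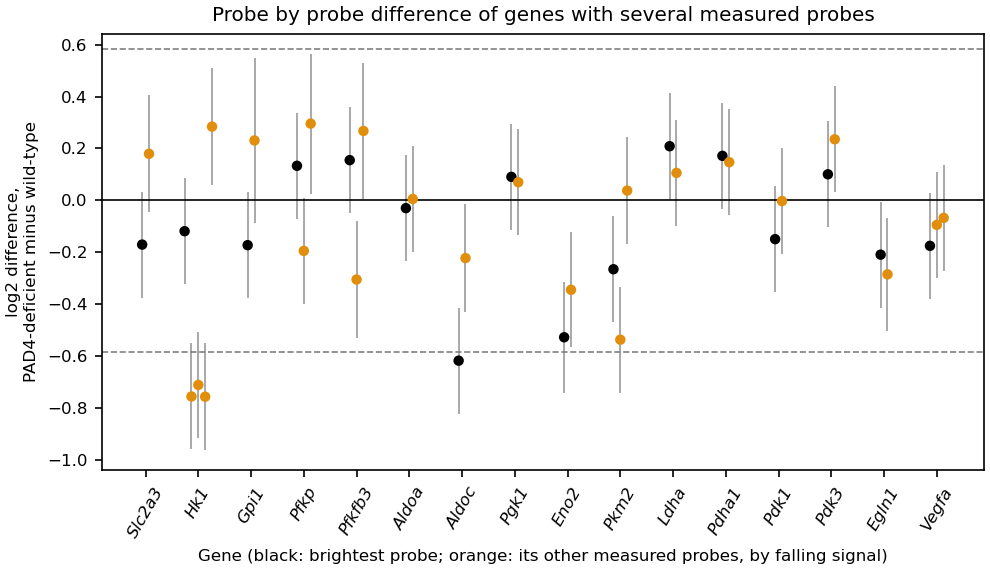
Difference at each measured probe (y axis, log2 scale, PAD4-deficient minus wild-type) of the 16 genes with 2 or more measured probes, with the scanner error as bars; black is the brightest probe and orange the others. The 3 orange Hk1 probes near -0.7 lie below the 1.5-fold line while the black one is at -0.12, and 7 of the 16 genes have probes on both sides of 0.

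Probes of one gene often lay on both sides of 0, in these genes and on the whole array. Of the 16 genes with 2 or more measured probes, 9 had all probes on the same side of 0 and 7 (43.8%) did not, against 40.8% of all 5878 such genes. Over the 56 measured probes, 16 (28.6%) were lower beyond their error, against 15.1% of all measured probes, and 7 (12.5%) were higher, against 15.7%. Probes of one gene are not independent, and Hk1 alone gave 3 of the lower ones.

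At the fate of pyruvate, the subunits of lactate dehydrogenase lay on opposite sides of 0. Ldha, the form that favours lactate, had signals of 39783 and 44415, a difference of 0.21 (error 0.20), and 29825 and 31006 (0.11) at its second probe. Ldhb, the form that favours pyruvate, had 18945 and 15845, a difference of -0.21. Each lay at the edge of its error, and the gap between them, 0.42, was larger than its error of 0.29. Slc16a3, the exporter of lactate, had 915 and 898 (0.022). Pdha1, a subunit of pyruvate dehydrogenase, had 2801 and 3047 (0.17), with 0.15 at its second probe.

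The 4 kinases that switch pyruvate dehydrogenase off did not share a direction. Pdk1, a known target of the low-oxygen factors, had 2641 and 2301 (-0.15), with -0.0025 at its other probe. Pdk2 had 243 and 180 (mm8 chromosome 11, 94842756 to 94842815), a difference of -0.38 (error 0.21). Pdk3 had 2086 and 2160 (0.10), with 0.24 at its other probe. Pdk4, which is known to rise in fasting, was dim, with 35.9 and 34.7, a difference of 0.0043 (error 0.29). The gap between Pdk3 and Pdk2 was 0.48, larger than its error of 0.29. That between Pdk4 and Pdk2 was 0.38 (error 0.36).

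Pgk1, Pdha1 and Pdk3 lie on the X chromosome, and all 3 were slightly higher on the PAD4-deficient array, by 0.091, 0.17 and 0.10. Each was within its error. Over all 453 measured X-linked genes the median difference was 0.024, with 56.1% above 0, and over genes not on X or Y it was 0.024, with 55.0% above 0. The part of sex in the 3 values was not tested.

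Among the regulators of the low-oxygen response, Hif1a was higher and Egln1 lower by just more than their error. Hif1a, the oxygen-regulated subunit, had signals of 653 and 730, a difference of 0.21 (error 0.20). Epas1, its relative, was not measured. Its brighter probe had 7.87 in wild-type cells, which was not above background, and 32.3 in PAD4-deficient cells, at least 1.89-fold higher. That bound sets 32.3, after scaling, against the lowest wild-type signal that was above background. Its other probe, with 3.98 and 8.40, was not well above background on either. Egln1, the main prolyl hydroxylase, had 931 and 778, a difference of -0.21 (error 0.20), and 120 and 95.2 (-0.28) at its second probe. Egln3, a hydroxylase induced by low oxygen, had 1137 and 1212 (0.14). The gap between the hydroxylases was 0.35 (error 0.29).

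The 3 classical targets outside glycolysis each lay below 0 and within the scanner error. Vegfa, the growth factor of blood vessels, had 3495 and 2991 at its brightest probe, a difference of -0.17. Another Vegfa probe was printed in many spots: 10 on the wild-type array ran from 901 to 1029 (median 948) and 9 on the PAD4-deficient array from 839 to 894 (median 855). These ranges are before scaling; scaled to the wild-type array, the PAD4-deficient spots ran from 869 to 926 and overlapped the wild-type ones. The difference was -0.094 with a spot error of 0.020. Bnip3, a mitophagy receptor, had 1474 and 1344 (-0.083), and Ndrg1, a stress-responsive gene, had 14796 and 12522 (-0.19).

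By role, the median difference was -0.096 for the 2 glucose transporters, -0.090 for 10 genes of upper glycolysis and -0.036 for 7 of lower glycolysis. It was 0.013 for 8 genes of pyruvate and lactate and -0.13 for the 6 measured genes of the low-oxygen response. Lower than 0 were 2 of 2, 7 of 10, 4 of 7, 3 of 8 and 4 of 6 genes, against 45% of all measured genes. With so few genes a role, no difference between roles was tested.

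Other genes of the same pathways gave no shared direction. Over all measured genes 55% lay above 0, 2.88% were at least 1.5-fold higher and 1.87% lower. At such shares lists this short could hold 0 genes at 1.5-fold. Of 18 further glycolysis enzymes and isozymes, 14 were measured, with a median of 0.15 and 9 above 0, and 0 were 1.5-fold different. Pfkfb4, a second maker of the phosphofructokinase activator, had 3389 and 2524 (-0.38). Tigar, which degrades that activator, had 63.0 and 87.2 (0.52, with 0.15 at its other probe). Pfkfb1, an X-linked relative, had -0.11. Of 10 further transporters, 8 were measured with a median of 0.0071 that turned to -0.14 with dim probes included, and 0 were 1.5-fold different. Slc2a9, a urate transporter of the glucose family, had -0.49, and its 3 measured probes ran from -0.79 to -0.42. Slc2a8 had -0.34, with -0.60 at its other probe. Single dimmer probes of Slc2a9 and Slc2a8 thus passed 1.5-fold lower, though neither gene did by its brightest probe. Slc16a1, a lactate transporter, had 0.34, and its 3 probes ran from 0.12 to 0.34. The 6 measured genes of the pyruvate dehydrogenase complex and its phosphatases had a median of 0.11, with 5 above 0 and 0 at 1.5-fold.

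By the brightest probe of each gene, further low-oxygen genes held the only 1.5-fold difference among these lists. Of 11 further genes of the sensing pathway, 10 were measured, with a median of -0.023. Below 0 lay 7, against 45% of all measured genes. Egln2, the third prolyl hydroxylase, had 5032 and 3283, a difference of -0.57 (error 0.20), and Cited2, which restrains the factors, had 0.48. Of 25 further targets, 21 were measured, with a median of 0.078 and 12 above 0, against 55% of all measured genes. Plod1, a collagen hydroxylase, had 193 and 116 and was at least 1.5-fold lower (-0.68, error 0.21), and 0 targets were 1.5-fold higher. Over all measured genes 1.87% were 1.5-fold lower and 2.88% higher. Among the brighter targets, Ddit4 had 0.078 and Bnip3l had 0.048, within the error, while Angptl4 had 0.29 and Hig2 had -0.27, beyond it. Genes without a 1.5-fold difference are named here as examples chosen after their values were seen.

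**Figure D4:**
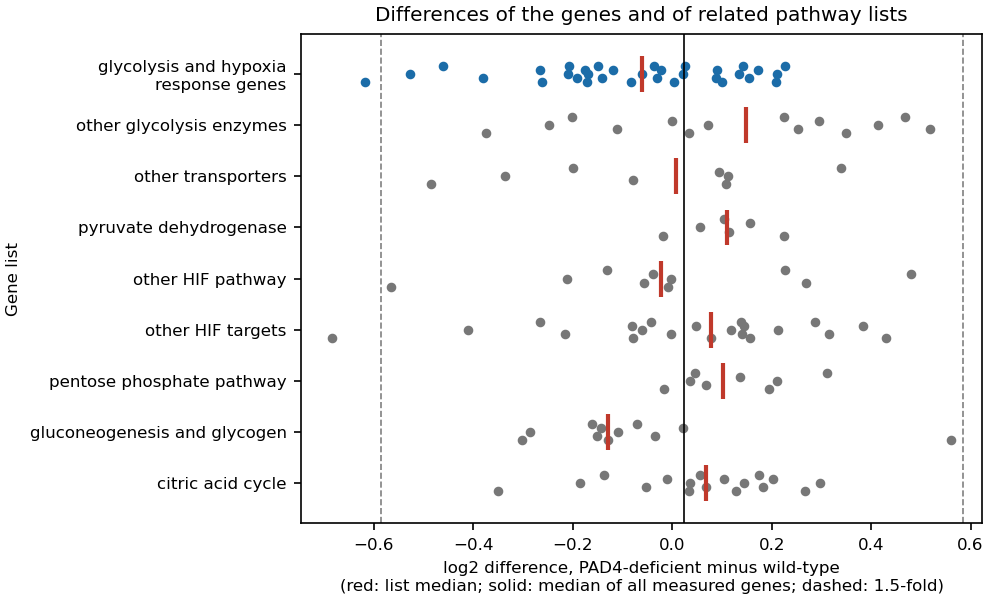
Difference (x axis, log2 scale, PAD4-deficient minus wild-type) of each measured gene (points) in the described set (blue) and in 8 related lists (grey), with the list median in red, the median of all genes as a solid line and 1.5-fold as dashed lines. Medians run from -0.13 (gluconeogenesis and glycogen) to 0.15 (other glycolysis enzymes), and 2 points lie outside 1.5-fold, Aldoc and Plod1, both lower.

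The lower values did not rest on the scaling. Under the other settings tried, Aldoc lay between -0.67 and -0.42, Eno1 between -0.52 and -0.45, Eno2 between -0.58 and -0.34 and Pdk2 between -0.44 and -0.29. Pgam1 stayed between 0.17 and 0.24 and Ldha between 0.15 and 0.25. Eno1, Pdk2 and Pgam1 have 1 measured probe each, so the mean over probes could not move them. The 3 lower Hk1 probes lay between -0.81 and -0.63 under the background and scaling alternatives.

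**Figure D5:**
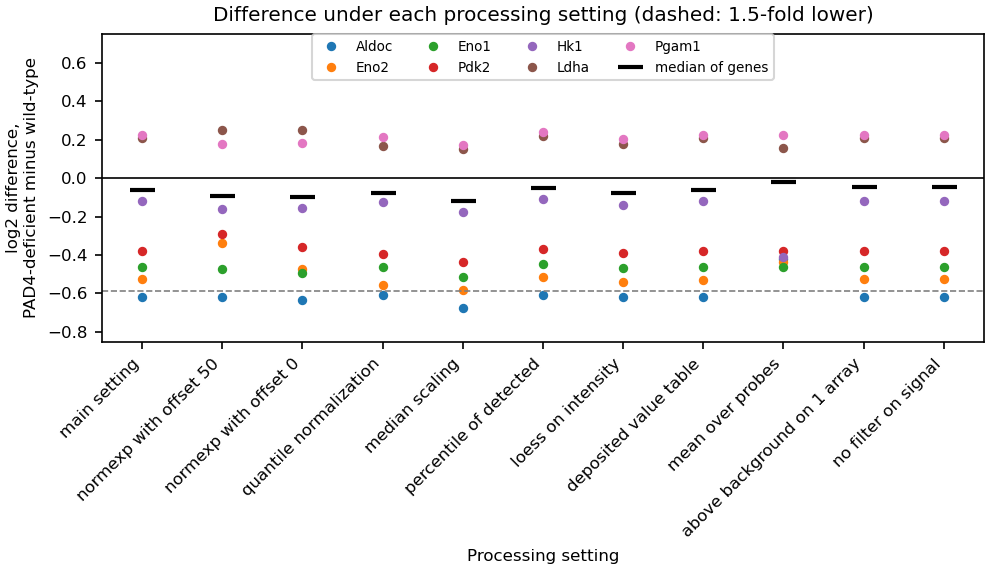
Difference (y axis, log2 scale, PAD4-deficient minus wild-type) of 7 genes and the median of the 33 genes (black bars) under the main setting and 10 alternatives (x axis), with the 1.5-fold line dashed. Aldoc, Eno2, Eno1 and Pdk2 stay below -0.29 and Ldha and Pgam1 above 0.15 in each setting, while Hk1 goes from -0.12 to -0.41 with the mean over probes.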

How the data were processed

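Total RNA of sorted LSK cells was measured on 2 one-colour Agilent arrays (Cy3), which lay on the same slide per the file headers. The deposited scanner files give spot intensity on a linear scale, processed by the authors in Feature Extraction 9.5.3.1 with spatial and multiplicative detrending switched on, per the file headers (version 9.5 in the submitters' processing notes), with probe coordinates on mm8. The deposited value table, on a log2 scale, matched, for all 41174 probes within 0.01, the log2 of each probe's median spot signal less a constant (9.67 wild-type, 9.62 PAD4-deficient). Its column medians were -3.59 and -3.53, so its scale, centring and direction are known.

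From the scanner files, spots with an outlier flag and control spots were left out, log2 signals were averaged over the spots of a probe, and each array's 75th percentile over all 41170 probes was subtracted. Gene names and chromosomes came from RefSeq (GRCm38.p6): accessions named 24375 probes, symbols 6301 and synonyms 2426, while 8072 kept their file name. The number of arrays limits the precision. The genes, lists and alternatives were chosen with earlier results of these data known. Named were all 34 genes, genes of the related lists by size or X linkage with examples chosen after their values were seen, examples of the marker lists, Padi4 and sex-linked transcripts. The alternatives were normexp with offsets of 50 and 0, 4 other scalings (quantile, median, percentile of detected probes, and loess with a span of 0.3), the deposited table, the mean over probes and 2 looser filters. The steps were tested on simulated data. The planted differences there were larger than those of the measured genes of this pathway, so that check does not cover differences of the size described here. Python 3.11.15 (numpy 2.4.6, pandas 2.3.3, statsmodels 0.14.6) and limma 3.58.1 in R 4.3.3 were used.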

Additional observations from a re-analysis of the deposited data

How the results depend on the processing

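No paired analysis was possible because each genotype had 1 array, and so no replicate could be left out. Of the 33 measured genes, 28 kept the sign of their difference under all 10 alternatives, and 32 moved by less than their scanner error. The exception was Hk1, at -0.41 with the mean over probes. Part of this stability was fixed by construction. For the 17 genes with 1 measured probe the mean over probes changes nothing. The deposited table holds the same signals less a constant, and median and percentile scaling shift all genes by a shared amount. Slc2a3 and Gpi1 turned sign with the mean over probes (0.0047 and 0.029), Hk2 and Slc16a3 with median scaling (-0.029 and -0.033), and Pdk4 with quantile, median and loess scaling. The median of the 33 genes lay between -0.12 and -0.022. With the mean over probes 0 genes were 1.5-fold lower, the median of the further transporters was -0.099 and that of the pentose phosphate genes 0.032. When 1 array above background sufficed, or with no filter, 1 gene, Epas1 (2.09), counted as at least 1.25-fold, 1.5-fold and 2-fold higher, and the transporters had -0.14; these filters take a dim signal as measured. The further glycolysis enzymes had 0.086 with quantile normalization and 0.072 when 1 array above background sufficed. Over all genes, the 1.5-fold counts (490 higher, 318 lower) were 204 and 132 with normexp and an offset of 50, 962 and 622 when 1 array above background sufficed, and 2309 and 1395 with no filter. The offset shrinks dim differences by construction, and the looser filters add dim probes; for the other shifts the cause was not tested. Signal over background limits Eno2, Pdk4 and Epas1.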

Other observations

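In the neighbouring routes of sugar metabolism most differences were within the scanner error, as were 11890 of all 17021 measured genes. All 8 genes of the pentose phosphate pathway, which makes NADPH and ribose, were measured, with a median difference of 0.10. Above 0 lay 7, against 55% of all measured genes. Rpe had the largest difference of this list, with 227 and 273 (0.31, error 0.21), and 0.073 at its other probe. Tkt, transketolase, had signals of 73553 and 73387 (0.047), Pgd, which makes NADPH, had 6118 and 6842 (0.21, with -0.22 at its other probe), and the X-linked G6pdx, the entry enzyme, had 6533 and 6237 (-0.017). Of 17 genes of the citric acid cycle, 17 were measured, with a median of 0.069 and 12 above 0, against 55% of all measured genes. Ogdh, of the oxoglutarate dehydrogenase complex, had -0.35. Sdha, of succinate dehydrogenase, had 0.30 (down to -0.14 at its other probes), and the X-linked Idh3g had 0.055.

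Of 13 genes of gluconeogenesis and glycogen, 11 were measured, with a median of -0.13 and 9 below 0, against a median of 0.024 and 45% below 0 over all measured genes. Beyond the scanner error were Fbp1, Pygb and G6pc, and no difference between the lists was tested. Fbp1, which reverses the phosphofructokinase step, had 3909 and 3095 (-0.29), and Pygb, a glycogen phosphorylase, had 1836 and 1438 (-0.30). G6pc, which releases free glucose, was dim, with 41.3 and 58.8, and had 0.56 (error 0.26). In each of these 3 lists 0 genes were 1.5-fold different, against 2.88% of all measured genes higher and 1.87% lower.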
